A study of Homo sapiens with 10 samples.

Results

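Toll-like receptors and the proteins that carry their signal were followed through U937 cells, a human monocytic line, after cross-linking of either of 2 Fc gamma receptors. The genes were TLR1, TLR2, TLR4, TLR5, TLR8, CD14, LY96, MYD88, IRAK1 and TRAF6, and a probe set was taken where the platform annotation gave it 1 of these symbols and no other. Of the 10 genes 8 had such a probe set, 1 each, among 7713 genes named in this way, and all 8 were among the 7708 probe sets tested. The expression of TLR5 and LY96 was not analysed here. The members were set by name, not by their values.

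All cells had been differentiated with interferon gamma, the control cells included. The 5 groups of 2 arrays were CD64 cross-linked for 6 h, CD64 cross-linked for 2 h, CD32 cross-linked for 6 h, CD32 cross-linked for 2 h, and control cells, which the labels give neither a cross-linking nor a time. CD64 is the high-affinity and CD32 a low-affinity receptor for IgG. U937 is 1 cell line, and nothing says that the arrays of a group came from separate cultures, so each p-value covers the spread of these arrays and nothing wider. On 1 CD32 2 h array the source name gives another receptor number than the title and description, which were followed.

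Toll-like receptors recognise microbial products: TLR4 binds lipopolysaccharide with the help of CD14 and LY96, TLR1 pairs with TLR2 to bind bacterial lipopeptides, TLR5 binds flagellin, and TLR8 binds RNA in endosomes. Ligand binding recruits the adaptor MYD88, which assembles the IRAK kinases, and these engage the ubiquitin ligase TRAF6 to switch on NF-kappaB and MAP kinases. In monocytes and macrophages this pathway drives the early release of inflammatory cytokines, and interferon gamma is known to prime it.

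TLR4, MYD88 and CD14 were the members with a called change against control, and the 250 bases before their start sites are shown for that reason (RefSeq, GRCh38.p14). Each sequence reads towards the gene. Capitals mark every match, on either strand, to the PU.1 core GAGGAA, the interferon gamma activated site TTCNNNGAA, the interferon-stimulated response element (GAAA, 2 free bases and GAAA), the AP-1 core TGANTCA or the NF-kappaB consensus.
TLR4, chr9:117704153-117704402, plus strand: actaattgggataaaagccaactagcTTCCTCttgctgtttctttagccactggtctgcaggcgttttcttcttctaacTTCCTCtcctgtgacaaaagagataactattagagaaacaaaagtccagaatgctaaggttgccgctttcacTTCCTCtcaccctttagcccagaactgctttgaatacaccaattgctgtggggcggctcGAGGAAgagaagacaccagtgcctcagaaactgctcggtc
MYD88, chr3:38138411-38138660, plus strand: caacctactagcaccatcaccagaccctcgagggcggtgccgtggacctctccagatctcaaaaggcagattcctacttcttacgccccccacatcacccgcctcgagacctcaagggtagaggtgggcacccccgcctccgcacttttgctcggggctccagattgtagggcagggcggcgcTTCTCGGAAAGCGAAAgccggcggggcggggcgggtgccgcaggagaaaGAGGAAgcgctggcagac
CD14, chr5:140633176-140633425, minus strand: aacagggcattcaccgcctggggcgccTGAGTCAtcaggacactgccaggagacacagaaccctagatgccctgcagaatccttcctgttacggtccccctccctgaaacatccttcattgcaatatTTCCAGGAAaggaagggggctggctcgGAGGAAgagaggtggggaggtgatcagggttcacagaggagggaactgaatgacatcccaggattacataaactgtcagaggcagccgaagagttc

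The TLR4 window held 4 PU.1 cores, of which 3 lie on the other strand and begin 224, 171 and 99 bases before the start, while the fourth begins 40 bases before it. PU.1 is a transcription factor of the myeloid lineage. The MYD88 window held 1 PU.1 core at 18 bases, and an activated site at 67 bases that overlaps a response element at 61 bases. The CD14 window held an AP-1 core at 223 bases, an activated site at 123 bases and a PU.1 core at 96 bases. Over the 35116 promoters of the same length in the reference table, 23.6% held a PU.1 core, 6.57% an activated site, 3.02% a response element, 6.57% an AP-1 core and 9.96% the NF-kappaB consensus. Of the other members scanned, TLR2, TLR5, TLR8 and TRAF6 held none of the 5 motifs. IRAK1 held the NF-kappaB consensus alone, at 1 place that reads as a match on both strands. The windows of TLR1 and LY96 were not scanned. These matches describe letters in a window, and no binding was measured here.

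Every array had been scaled by the submitters to nearly the same trimmed mean signal, 499.4 to 499.9. A value under 37.5, the floor set here at the 25th percentile of the table, was treated as not measurable, which took in 20.2 to 29.8% of an array. Of 14 myeloid marker genes 10 were on the array and 8 were above the floor on all 10 arrays, among them ITGAM, CSF1R and SPI1, while none of the 5 epithelial and fibroblast markers was. Of the lists for T cells (5 on the array), B cells (3), natural killer cells (3) and erythroid cells (1), 1 gene each was above the floor on all arrays: CD2, CD79A, NKG7 and HBB. NKG7 averaged 2230 at CD64 6 h, 1440 at CD64 2 h, 1978 at CD32 6 h, 1831 at CD32 2 h and 2149 in control, and HBB 255, 421, 184, 199 and 191 in the same groups. The summed signal of the myeloid markers ran from 6992 to 7825 at CD64 6 h, 7634 to 7891 at CD64 2 h, 11087 to 12436 at CD32 6 h, 9598 to 9842 at CD32 2 h and 12685 to 14050 in control. The granule genes ELANE, AZU1 and PRTN3 made up most of that sum (means of 2750, 1390 and 965 at CD64 6 h, against 4405, 3748 and 2237 in control). Other genes of the list went both ways. CSF1R averaged 194 at CD64 6 h and 80.1 at CD64 2 h, against 115 in control. ITGAM averaged 747 at CD32 6 h and 374 at CD64 2 h, against 481 in control. SPI1, the gene of PU.1, averaged 110 at CD64 6 h, 112 at CD64 2 h, 584 at CD32 6 h, 332 at CD32 2 h and 273 in control. CEBPA averaged 759, 2012, 544, 1449 and 1377 in the same groups. The part of these genes in the members' results was not tested. The mean log2 signal of 9 probe sets for added bacterial and phage transcripts was 9.03 at CD64 6 h, 10.55 at CD64 2 h, 12.11 at CD32 6 h, 11.03 at CD32 2 h and 10.38 in control, and the 3′ over 5′ signal ratio of actin was 1.12, 1.81, 1.99, 1.56 and 1.3 in the same groups. Both go with the groups, so their part in the results cannot be told apart from cross-linking. In these bulk samples fewer cells of a type and less RNA per cell cannot be told apart either.

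TLR4, the lipopolysaccharide receptor, rose against control in all 4 cross-linked groups. Its signal was 488.7 and 581.1 at CD64 6 h, 289.0 and 332.9 at CD64 2 h, 392.2 and 343.6 at CD32 6 h, 388.6 and 346.7 at CD32 2 h, against 175.0 and 189.0 in control. Every cross-linked array lay above both control arrays, and the CD64 6 h arrays lay above all others. In limma the log2 change was 1.55 ± 0.191 at CD64 6 h (SE, adjusted p = 0.000212), a 2.93-fold higher signal. It was 0.77 ± 0.191 at CD64 2 h (limma adjusted p = 0.02), 1.71-fold. At CD32 6 h and at CD32 2 h it was 1.01 ± 0.191 (limma adjusted p = 0.00341 and 0.00466), 2.02-fold at both times. These 4 comparisons use the same control arrays. The CD64 2 h call was lost without CD64 2 h replicate 2 (adjusted p = 0.125), without CD64 2 h replicate 1 (0.0515) and without control replicate 1 (0.0742), and the other 3 calls held whichever array was left out.

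**Figure D1:**
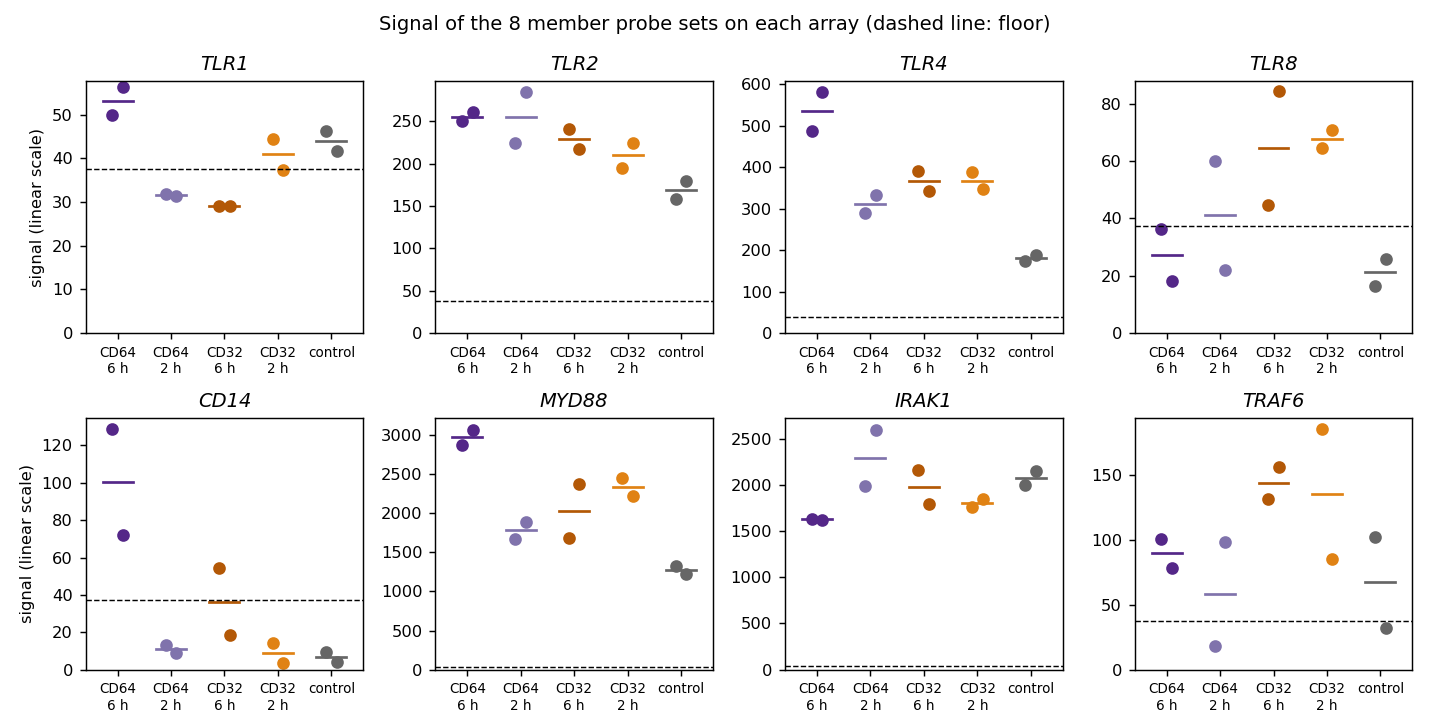
Linear signal of each of the 8 member probe sets (vertical axes, each from 0) in the 5 groups (horizontal axes). Points are single arrays, short bars the mean of 2 arrays and the dashed line the floor of 37.5. TLR4 and MYD88 lie above control in every cross-linked group, and CD14 lies under the floor on 7 of 10 arrays.

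TLR2, the partner of TLR1, had signals of 250.0 and 260.9 at CD64 6 h, 224.8 and 285.2 at CD64 2 h, 240.5 and 217.5 at CD32 6 h, 194.9 and 224.9 at CD32 2 h, against 158.4 and 179.8 in control. All 8 cross-linked arrays lay above both control arrays, but no difference passed the test. The log2 change was 0.60 ± 0.251 at CD64 6 h (SE, limma adjusted p = 0.13), 0.59 ± 0.251 at CD64 2 h (0.156), 0.44 ± 0.251 at CD32 6 h (0.275) and 0.31 ± 0.251 at CD32 2 h (0.499). Before adjustment both CD64 comparisons had p under 0.05, at 0.0369 and 0.0402.

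TLR1 and TLR8 lay close to the floor, each above it on 5 of 10 arrays. TLR1 had signals of 49.9 and 56.3 at CD64 6 h, 31.9 and 31.3 at CD64 2 h, 29.0 and 29.1 at CD32 6 h, 44.5 and 37.3 at CD32 2 h, against 46.2 and 41.7 in control. The CD64 6 h arrays were the highest, both control arrays were above the floor, and the CD64 2 h and CD32 6 h arrays were under it. The log2 changes ran from -0.23 to 0.27 with a standard error of 0.232, and none passed the test (limma adjusted p of 0.512 at the lowest). TLR8 had signals of 36.4 and 18.2 at CD64 6 h, 60.1 and 22.0 at CD64 2 h, 44.7 and 84.5 at CD32 6 h, 64.7 and 70.7 at CD32 2 h, against 16.5 and 25.9 in control. All 4 CD32 arrays were above the floor, as was 1 CD64 2 h array, and neither control array was. TLR8 thus passed the filter on low values only through these cross-linked arrays. The CD32 signal was at least 1.64-fold that of control at 6 h and at least 1.8-fold at 2 h, without passing the test (limma adjusted p = 0.201 and 0.147). With 1 array left out the log2 change at CD32 6 h ran from 0.25 to 1.17, around 0.71 with all arrays. For TLR8 at CD64 6 h no fold is given, since both groups lay under the floor.

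CD14, the co-receptor that hands lipopolysaccharide to TLR4 and a surface marker of blood monocytes, was under the floor on both control arrays. Its signal was 128.6 and 71.9 at CD64 6 h, 13.1 and 9.2 at CD64 2 h, 54.4 and 18.4 at CD32 6 h, 14.5 and 3.6 at CD32 2 h, against 9.4 and 4.1 in control. Both CD64 6 h arrays and 1 CD32 6 h array were above the floor, and the other 7 arrays were under it. CD14 passed the filter on low values only through these 3 arrays. Its calls, its place in every count of members called and its F-test thus rest on the group where it is high. At CD64 6 h CD14 rose at least 2.56-fold, the log2 change from the floor being 1.36 ± 0.324 (SE, limma adjusted p = 0.0121). The call was lost without CD64 6 h replicate 1 (log2 change 0.94, adjusted p = 0.107), without control replicate 1 (0.0512) and without control replicate 2 (0.0502). In the other 3 groups the mean signal was under the floor, as in control, so no fold is given.

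MYD88, the adaptor shared by the MYD88-dependent receptors, rose in all 4 cross-linked groups. Its signal was 2869.5 and 3067.5 at CD64 6 h, 1672.8 and 1892.7 at CD64 2 h, 1678.9 and 2372.2 at CD32 6 h, 2453.1 and 2218.8 at CD32 2 h, against 1325.3 and 1220.6 in control. As with TLR4, every cross-linked array lay above both control arrays and the CD64 6 h arrays lay above all others. The log2 change was 1.22 ± 0.146 at CD64 6 h (SE, limma adjusted p = 0.000166), a 2.33-fold higher signal. It was 0.65 ± 0.146 at CD32 6 h (adjusted p = 0.00915 in limma, 1.57-fold) and 0.88 ± 0.146 at CD32 2 h (adjusted p = 0.00232 in limma, 1.83-fold). At CD64 2 h it was 0.48 ± 0.146 (adjusted p = 0.0458 in limma, 1.4-fold).

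The CD64 2 h call of MYD88 was near the threshold. It was lost under quantile normalization (log2 change 0.44, adjusted p = 0.071) and cyclic loess (0.44, 0.0613), and without any 1 of the 8 arrays other than those of CD32 6 h, with an adjusted p of up to 0.232. The median of all probe sets at CD64 2 h was -0.13 as deposited and 0 after quantile normalization, and MYD88 and TLR4 lay above it in both. The CD32 6 h call was lost without CD32 6 h replicate 2 (log2 change 0.40, adjusted p = 0.0602) and without control replicate 2 (0.0651). The MYD88 calls at CD64 6 h and CD32 2 h held whichever array was left out.

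IRAK1, the kinase recruited to MYD88, had signals of 1629.6 and 1620.9 at CD64 6 h, 1987.2 and 2596.8 at CD64 2 h, 2162.6 and 1789.6 at CD32 6 h, 1762.9 and 1845.9 at CD32 2 h, against 1998.6 and 2148.8 in control. Both CD64 6 h arrays and both CD32 2 h arrays lay below control, while the CD64 2 h and CD32 6 h arrays overlapped it. The largest difference was at CD64 6 h, a log2 change of -0.35 ± 0.131 that did not pass the test (SE, limma adjusted p = 0.0899). It passed after quantile normalization, at -0.41 (adjusted p = 0.0418), and without either CD64 2 h array.

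TRAF6, the ubiquitin ligase downstream of IRAK1, differed widely between the arrays of a group at CD64 2 h, at CD32 2 h and in control. Its signal was 100.9 and 78.5 at CD64 6 h, 18.2 and 98.6 at CD64 2 h, 131.6 and 155.6 at CD32 6 h, 185.5 and 85.1 at CD32 2 h, against 102.3 and 32.4 in control. TRAF6 was above the floor on 8 of 10 arrays. The lower control array and the lower CD64 2 h array lay under it, so its log2 changes against control depend on the floor. Only the CD32 6 h arrays lay apart from control, above it. The log2 change was 1.21 ± 0.61 there and 1.02 ± 0.61 at CD32 2 h (SE, limma adjusted p = 0.21 and 0.336), and with 1 array left out these ran from 0.48 to 1.93 and from 0.30 to 1.74. At CD64 6 h it was 0.52 ± 0.61 and at CD64 2 h -0.03 ± 0.61, and the CD64 2 h value was 0.31 after quantile normalization, so TRAF6 has no settled direction there.

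**Figure D2:**
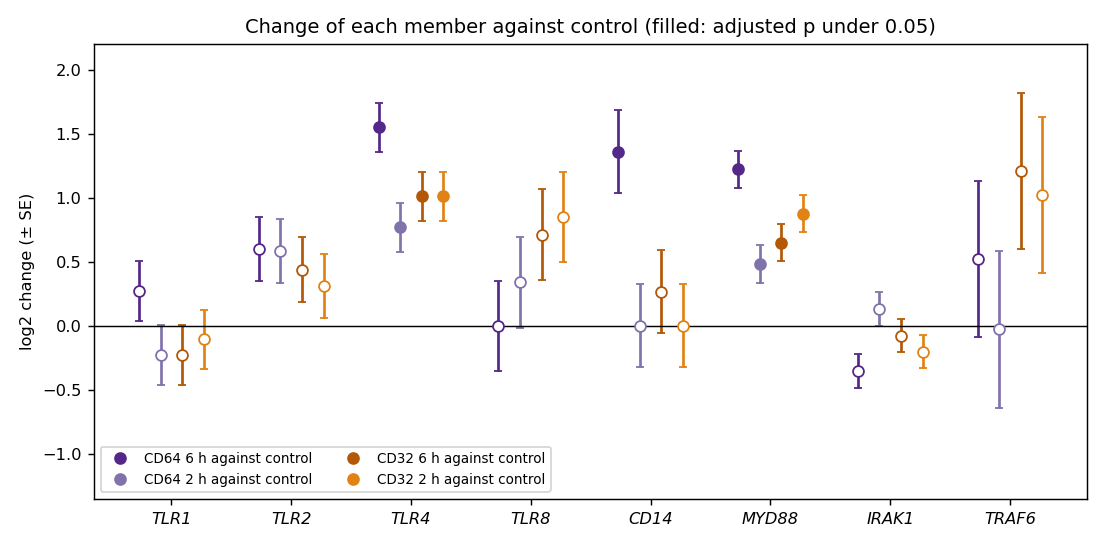
Log2 change of each of the 8 members against control with its standard error from limma, for CD64 6 h, CD64 2 h, CD32 6 h and CD32 2 h. Filled points have an adjusted p under 0.05: TLR4 and MYD88 are filled in all 4 comparisons and CD14 at CD64 6 h, and no filled point lies below 0.

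Counted over the 8 members, 3 were called higher at CD64 6 h, where 10.7% of all probe sets were. At CD64 2 h 2 were called higher, against 7.64% of all probe sets, at CD32 6 h 2 against 9.63%, and at CD32 2 h 2 against 8.86%. No member was called lower, where 9.94, 8.24, 10.3 and 6.6% of all probe sets were in the same 4 comparisons (over 8 members these shares come to less than 1 member each). The median log2 change of the members was 0.56 at CD64 6 h, 0.24 at CD64 2 h, 0.54 at CD32 6 h and 0.58 at CD32 2 h, beside -0.04, -0.13, -0.08 and -0.03 over all probe sets. These medians include TLR8 and CD14, which passed the filter on low values only through cross-linked arrays. Both arrays lay above both control arrays for 5 members at CD64 6 h (25.9% of all probe sets), 3 at CD64 2 h (19.1%), 6 at CD32 6 h (23%) and 4 at CD32 2 h (24.3%). TLR8 is among those at CD32 6 h and at CD32 2 h. The 6 at CD32 6 h include CD14, of which 1 CD32 6 h array and both control arrays lay under the floor, where an order has no meaning. Both lay below control for 1 member in each, with 27.2, 32.5, 31 and 25.9% of all probe sets. An F-test over the 4 comparisons called 3 members, against 34.5% of all probe sets: MYD88 (limma adjusted p = 0.000793), TLR4 (0.00116) and CD14 (0.0227).

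The receptors were set against each other at each time. At 6 h 2 of 8 members were called higher after CD64 than after CD32, where 9.81% of all probe sets were, and none was called lower, where 7.8% were. The 2 include CD14, which passed the filter on low values only through arrays of these groups. MYD88 averaged 2968 ± 140 at CD64 6 h and 2026 ± 490 at CD32 6 h (SD, n = 2 each), and the log2 difference was 0.57 ± 0.146 (SE, adjusted p = 0.0201 in limma). The arrays did not overlap, which was not counted over all probe sets. The CD32 6 h arrays differed widely from each other, and without CD32 6 h replicate 1, the lower one, the difference was 0.32 and was not called. The MYD88 call was also lost without either CD64 6 h array (log2 difference 0.62 without replicate 1, 0.52 without replicate 2). CD14 averaged 100 ± 40.1 at CD64 6 h, against 36.4 ± 25.5 at CD32 6 h (SD, n = 2 each), at least 2.13-fold higher (limma adjusted p = 0.0408). That CD14 call was lost in 13 of 17 alternatives, including each of the 9 in which an array other than CD64 6 h replicate 2 was left out, with an adjusted p of up to 0.284. TLR4 averaged 535 ± 65.3 at CD64 6 h and 368 ± 34.4 at CD32 6 h (SD, n = 2 each), a 1.45-fold difference that did not pass the test (limma adjusted p = 0.0805).

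At 2 h no member was called between CD64 and CD32, where 16.3% of all probe sets were (6.86% higher and 9.43% lower), and 1 member in each direction had an unadjusted p under 0.05. MYD88 averaged 1783 ± 155 at CD64 2 h and 2336 ± 166 at CD32 2 h (SD, n = 2 each), a log2 difference of -0.39 ± 0.146 (SE, adjusted p = 0.101 in limma). IRAK1 averaged 2292 ± 431 at CD64 2 h and 1804 ± 58.7 at CD32 2 h, a log2 difference of 0.33 ± 0.131 (SE, adjusted p = 0.122 in limma). For both genes the arrays of the groups did not overlap. How many of all probe sets did so between these groups was not counted. Against control at CD32 2 h, 24.3% of all probe sets had both arrays above and 25.9% both below. The MYD88 difference was called without either CD32 6 h array, and that of IRAK1 without CD64 2 h replicate 1 (0.53 on the log2 scale).

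Between the 2 times of CD64 cross-linking 3 members were called higher at 6 h, where 7.56% of all probe sets were, and 1 was called lower, where 6.25% were. The 3 include CD14, which passed the filter on low values only through CD64 6 h and CD32 6 h arrays. MYD88 was 1.67-fold higher at CD64 6 h than at CD64 2 h (log2 difference 0.74 ± 0.146, adjusted p = 0.00705 in limma), and TLR4 was 1.72-fold higher (0.78 ± 0.191, adjusted p = 0.0204 in limma). CD14 was at least 2.56-fold higher (adjusted p = 0.0181 in limma). IRAK1 was 1.4-fold lower, at 1625 ± 6.15 against 2292 ± 431 (SD, n = 2 each, adjusted p = 0.0328 in limma). None of these calls held through every array left out. The TLR4 call was lost without any of the 4 CD64 arrays and after quantile normalization (log2 difference 0.59, adjusted p = 0.118), the MYD88 call without CD64 2 h replicate 1 or CD64 6 h replicate 2, and the CD14 call without CD64 6 h replicate 1 or either CD64 2 h array. The IRAK1 difference was -0.29 without CD64 2 h replicate 2, the higher array, and the call was also lost without either CD64 6 h array, control replicate 2 or either CD32 2 h array.

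Between the 2 times of CD32 cross-linking no member was called, where 4.46% of all probe sets were (2.04% higher and 2.43% lower), and no member had an unadjusted p under 0.05. TLR4 averaged 368 ± 34.4 at CD32 6 h and 368 ± 29.6 at CD32 2 h (SD, n = 2 each), and its log2 difference was 0.00 ± 0.191 (SE). MYD88 differed by -0.23 ± 0.146 on the log2 scale (SE). Whether the step between the times differed between the receptors was tested as an interaction, which called 1 member higher for CD64, against 6.72% of all probe sets, and none lower, against 4.75%. That member was MYD88, with a difference of differences of 0.96 ± 0.206 on the log2 scale (SE, adjusted p = 0.013 in limma). It was 0.89 without CD32 2 h replicate 1, 0.87 without CD64 2 h replicate 1 and 0.91 without CD64 6 h replicate 2, and was not called in those 3. For TLR4 the same term was 0.78 ± 0.27 (SE) and was not called (adjusted p = 0.0944 in limma), and for IRAK1 -0.61 ± 0.186 (adjusted p = 0.061 in limma). The IRAK1 term was called without CD32 6 h replicate 2 or CD64 2 h replicate 1. The median of all probe sets in this interaction was 0.16 as deposited.

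**Figure D3:**
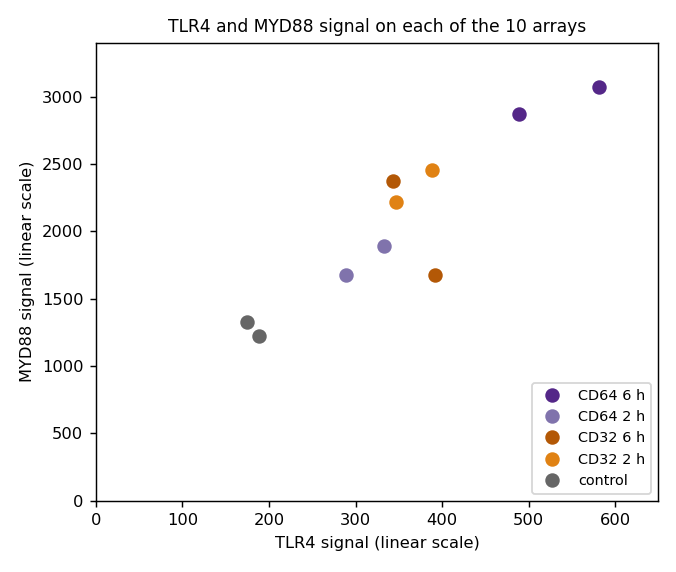
TLR4 signal (horizontal axis) against MYD88 signal (vertical axis) on the 10 arrays, both linear, coloured by group. The control arrays are lowest on both axes and the CD64 6 h arrays highest, and the CD32 6 h arrays stand apart from each other in MYD88.

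Over the 10 arrays the log2 signals of TLR4 and MYD88 had a Pearson r of 0.912, given as a description, since the points share the array scaling and fall in 5 pairs. Among 6803 genes, MYD88 stood at place 45 in likeness to TLR4, and TLR4 at place 24 in likeness to MYD88. The genes most like TLR4 were CTSS, a lysosomal protease of antigen presentation (r = 0.974), CCL2, a monocyte-attracting chemokine (0.966), and ATP6V0E1, a proton pump subunit (0.963). CCL2 had a mean signal of 6955 at CD64 6 h, 791 at CD64 2 h, 1713 at CD32 6 h, 907 at CD32 2 h and 152 in control. The genes most like MYD88 were HBS1L (r = 0.973), the kinase ROCK2 (0.970) and the small GTPase RAB29 (0.956). The gene most like CD14 was FASLG (r = 0.936), itself mostly under the floor.

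The rest of the pathway was read from lists of 54 other genes, 39 of them on the array and 36 tested, set by their place in the pathway. Of the 36, 10 were called higher and 2 lower at CD64 6 h, with a median log2 change of 0.33. At CD64 2 h 2 were called higher and 6 lower, with a median of -0.28. At CD32 6 h 8 were called higher and 1 lower, with a median of 0.30, and at CD32 2 h 5 and 2, with a median of 0.11. The shares of all probe sets called in these comparisons, in either direction, were 20.6, 15.9, 20 and 15.5%. By direction, 10.7, 7.64, 9.63 and 8.86% of all probe sets were called higher, and 9.94, 8.24, 10.3 and 6.6% lower. At CD64 2 h the split was 4 higher and 7 lower after quantile normalization and 5 and 6 after cyclic loess. At CD64 6 h it was 11 and 5 after quantile normalization. The count called higher at CD64 6 h was 5 without control replicate 2 and 6 without either CD64 6 h array. At CD64 2 h it was 1 without either CD64 2 h array and 4 without control replicate 1. At CD32 2 h it was 1 without control replicate 2, 2 without either CD32 2 h array, and 3 without either CD32 6 h array or CD64 6 h replicate 2.

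Of the other Toll-like receptors 3 were tested, and TLR3, the endosomal sensor of double-stranded RNA, was called. Its signal was 98.3 and 96.4 at CD64 6 h, 18.6 and 9.0 at CD64 2 h, 81.6 and 37.7 at CD32 6 h, 63.0 and 48.9 at CD32 2 h, against 5.3 and 26.4 in control. TLR3 was at least 2.6-fold higher at CD64 6 h than in control (limma adjusted p = 0.0218), a call lost without either CD64 6 h array or either control array. TLR3 passed the filter on low values only through CD64 6 h and CD32 arrays. Its call thus rests on a group where it is high, and it is among the pathway genes counted as called higher at CD64 6 h. Of 5 tested co-receptors and chaperones 1 was called higher and 1 lower at CD64 6 h, 1 lower at CD64 2 h and 1 higher at CD32 2 h, where 20.6, 15.9 and 15.5% of all probe sets were called. CNPY3, a chaperone that brings Toll-like receptors to the surface, fell in both CD64 groups, with means of 499 ± 15.1 at 6 h and 487 ± 45.3 at 2 h against 753 ± 47.2 in control (SD, n = 2 each, limma adjusted p = 0.0138 and 0.0137). LY86, the partner of the receptor CD180, was 1.46-fold higher at CD64 6 h (limma adjusted p = 0.0206) and 1.41-fold higher at CD32 2 h (0.0428). Both CNPY3 calls were lost without control replicate 2, and both LY86 calls without either control array. The CNPY3 call at CD64 6 h was also lost without either CD64 6 h array, that at CD64 2 h without CD64 2 h replicate 2, and both LY86 calls without CD64 6 h replicate 2. The LY86 call at CD32 2 h was lost without any CD32 array as well.

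Among 4 tested IKK family kinases, TBK1, which phosphorylates interferon regulatory factors, was called higher in 3 groups. It averaged 878 ± 78.4 at CD64 6 h, 764 ± 7.64 at CD32 6 h and 724 ± 55.2 at CD32 2 h, against 421 ± 114 in control (SD, n = 2 each), and was 2.12-fold, 1.85-fold and 1.75-fold higher (limma adjusted p = 0.0013, 0.0048 and 0.0104). TBK1 at CD64 2 h had signals of 653.6 and 568.4, against 501.9 and 340.3 in control, both above control, and a 1.47-fold higher level that did not pass the test (limma adjusted p = 0.0554). The CD32 2 h call of TBK1 was lost without control replicate 2 or CD32 2 h replicate 1. CHUK, an IKK subunit, was 2.44-fold higher at CD64 6 h (limma adjusted p = 0.0109) and 2.65-fold higher at CD64 2 h (0.00985). The CHUK calls were lost without control replicate 2 or CD64 6 h replicate 1 at 6 h, and without either CD64 2 h array at 2 h. Of the TAK1 complex and its ubiquitin enzymes 3 were tested: TAB1, which activates TAK1, was at least 2.9-fold lower at CD32 6 h (limma adjusted p = 0.0421) and 3.34-fold lower at CD32 2 h (0.0303). TAB1 was 2.52-fold lower at CD64 6 h and 2.81-fold lower at CD64 2 h without passing the test (limma adjusted p = 0.0718 and 0.0563), and every cross-linked array lay below both control arrays. In each cross-linked group an array lay under the floor, so these TAB1 folds depend on the floor. Both TAB1 calls were lost with a floor of 18.75 (limma adjusted p = 0.0921 at CD32 6 h and 0.143 at CD32 2 h) and without the filter on low values. UBE2N, a ubiquitin-conjugating enzyme, was 1.51-fold higher at CD64 6 h (limma adjusted p = 0.044). The TAB1 calls were lost without any array of the groups compared, that at CD32 6 h also without either CD32 2 h array, and the UBE2N call without any array other than control replicate 1 and with a replicate block (adjusted p = 0.0501 in limma). IRAK4, IRAK2 and IRAK3 had 1 tested gene among them, and it was not called.

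Of the 6 transcription factors IRF7, which drives type I interferon genes, was called in 3 groups and in both directions. It averaged 1255 ± 73 at CD64 6 h, 404 ± 48.3 at CD64 2 h and 1239 ± 73.3 at CD32 6 h, against 800 ± 123 in control (SD, n = 2 each). IRF7 was 1.58-fold higher at CD64 6 h (limma adjusted p = 0.0103), 1.98-fold lower at CD64 2 h (0.00153) and 1.56-fold higher at CD32 6 h (0.0128). The CD64 6 h and CD32 6 h calls of IRF7 were lost without control replicate 2 or replicate 2 of the cross-linked group. IRF3 was 2.06-fold lower at CD64 2 h (limma adjusted p = 0.00753), a call lost without CD64 2 h replicate 1, and the NF-kappaB subunit RELA 1.49-fold lower at CD64 6 h (0.036), a call lost without CD64 6 h replicate 1, control replicate 1, CD32 6 h replicate 2 or either CD32 2 h array.

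Among 6 tested inhibitors, NFKBIA, which holds NF-kappaB in the cytoplasm, averaged 939 ± 62.4 at CD64 6 h, 1548 ± 248 at CD32 6 h and 967 ± 18.4 at CD32 2 h, against 593 ± 73.7 in control (SD, n = 2 each). It was 1.59-fold, 2.6-fold and 1.64-fold higher (limma adjusted p = 0.0049, 4.95e-05 and 0.00498), and the CD64 6 h call was lost without CD64 6 h replicate 1. TNFAIP3, which edits ubiquitin chains on TRAF6, was 2.1-fold lower at CD64 2 h (limma adjusted p = 0.000147) and 1.5-fold higher at CD32 6 h (0.00339).

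Among 8 tested target genes, CXCL8, a neutrophil-attracting chemokine, averaged 809 ± 33.4 at CD64 6 h, 2402 ± 77.1 at CD64 2 h, 982 ± 43.6 at CD32 6 h and 254 ± 10.2 at CD32 2 h, against 174 ± 33.2 in control (SD, n = 2 each). It was 4.68-fold, 13.9-fold, 5.69-fold and 1.47-fold higher (limma adjusted p = 4.53e-06, 1.35e-07, 1.53e-06 and 0.0255). Among the named targets CXCL8 was highest at CD64 2 h, IL1B at CD32 6 h and CCL4 at CD64 6 h, where TLR4 and MYD88 were highest too. How the targets relate to the members was not tested. The CXCL8 call at CD32 2 h was lost without control replicate 2 or either CD32 2 h array. IL1B was 2.29-fold lower at CD64 2 h (limma adjusted p = 0.000509) and 1.44-fold lower at CD32 2 h (0.041). The CD32 2 h call of IL1B was lost without control replicate 2, any CD32 array or either CD64 6 h array. The chemokine CCL4 averaged 1212 ± 89.8 at CD64 6 h and 412 ± 90.5 at CD32 6 h (SD, n = 2 each). The control arrays of CCL4 differed widely, with a mean of 75.8 ± 97.8 and 1 of 2 under the floor, so its fitted fold of 16.4 at CD64 6 h and 5.52 at CD32 6 h depends on the floor (limma adjusted p = 0.000249 and 0.00601). The CCL4 call at CD32 6 h was lost without CD32 6 h replicate 1.

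**Figure D4:**
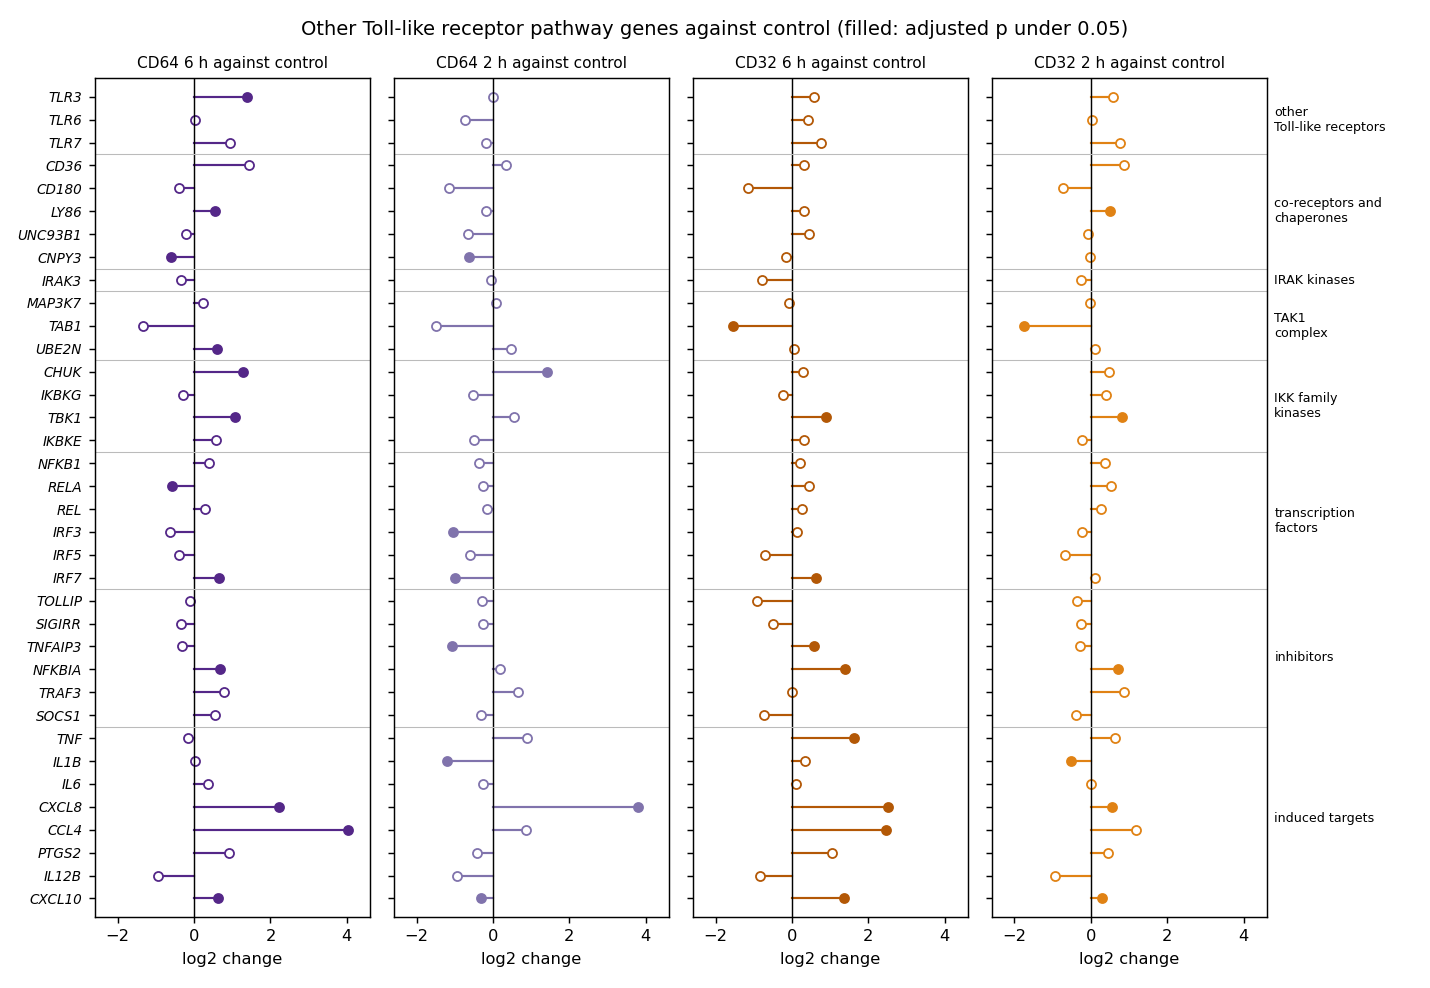
Log2 change against control of the 36 tested pathway genes, grouped by list from receptors at the top to induced targets at the bottom, in 4 panels for CD64 6 h, CD64 2 h, CD32 6 h and CD32 2 h. Filled points have an adjusted p under 0.05. At CD64 2 h 6 of the 8 filled points lie below 0, where 8.24% of all probe sets were called lower and 7.64% higher. At CD64 6 h 10 of 12 lie above it, where 10.7% of all probe sets were called higher and 9.94% lower. The CD64 2 h split depended on the normalization.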

How the data were processed

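The intensity values deposited by the authors, on a linear scale, were used as they stood. They came from 1-colour arrays with 1 value for each probe set. From the values, the arrays had been scaled to a common trimmed mean (without the lowest and highest 2%). The software is not given in the sources used here. Symbols came from the platform annotation: of 8746 probe sets other than 47 controls, 7840 had 1 symbol, 388 several and 518 none.

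Values under 37.5 were set to it and log2 was taken. The 7708 probe sets above it on at least 2 arrays went into a limma fit (version 3.58.1, R 4.3.3; lmFit, eBayes with a variance trend, 1 term per group, 5 residual degrees of freedom). All tests were two-sided. Benjamini-Hochberg adjustment ran over all probe sets tested, and an adjusted p under 0.05 made a call. Folds are lower bounds ("at least") where the mean of the lower group was at or under the floor. The number of arrays limits the precision. The fit was tested on simulated data with changes placed only in probe sets well above the floor. That test does not cover members near the floor or changes smaller than those simulated.

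All members were named, and of each pathway list up to 2 called genes with the largest change per comparison with control, 1 probe set a gene. The genes most like a member were the 3 with the highest Pearson r to it. Members, lists and tests were chosen with earlier results of these data known, and the promoter motifs after the members' values were seen. The labels do not pair the arrays, so no pairing was assumed. Over 10 pairs of groups the correlation of deviations between arrays of 1 number was -0.141 to 0.285. All 3 pairs among control, CD64 2 h and CD64 6 h were above 0.2, so these values do not show that pairing is absent. Alternatives changed the normalization (quantile, cyclic loess), the floor, the filter, the variance trend, the arrays in the fit and a replicate block, and left out each array in turn.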

Additional observations from a re-analysis of the deposited data

Results flagged for a closer look

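These members differed between receptors or times by the test of that difference. On the log2 scale, CD64 6 h lay above CD64 2 h by 0.78 for TLR4 and 0.74 for MYD88, and differed by -0.48 for IRAK1. CD64 6 h lay above CD32 6 h by 0.57 for MYD88. For CD14 the lower group lay under the floor, so its differences are lower bounds, at least 1.36 between the CD64 times and at least 1.09 between the receptors at 6 h, and the call between the receptors was lost in 13 of 17 alternatives. The step from 2 h to 6 h was 0.96 larger after CD64 than after CD32 for MYD88. The other calls were not stable either. Between the CD64 times the call of IRAK1 was lost in 10 of 17 alternatives, that of TLR4 in 6, CD14 in 4 and MYD88 in 3. The MYD88 call between the receptors at 6 h was lost in 6, and that of its interaction in 5. The bacterial control signal and the actin ratio also differ between these groups, and their part in these differences was not tested.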

How the results depend on the processing

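Of 16 called member results 5 were called under all 17 alternatives: TLR4 at CD64 6 h, CD32 6 h and CD32 2 h, and MYD88 at CD64 6 h and CD32 2 h. None of the 16 changed direction. Over all 9 comparisons 56 member results were not called, and 50 of them were called under no alternative. TLR1 was called higher at CD64 6 h than at CD32 6 h (adjusted p = 0.0274 in limma) and than at CD64 2 h (0.0336) without the filter on low values; the other 4 were of MYD88 and IRAK1. Without the filter on low values, 1 member was called at CD64 2 h, 1 at CD32 6 h, 1 between the receptors at 6 h (TLR1) and 0 in the interaction. Without the variance trend, 1 was called at CD64 2 h, 1 at CD32 6 h, 0 between the receptors at 6 h, 2 between the CD64 times and 0 in the interaction. With only the arrays of the groups compared, 1 was called at CD64 2 h, 1 between the receptors at 2 h, 0 between the receptors at 6 h and 2 between the CD64 times. Cyclic loess gave 1 at CD64 2 h and 2 between the CD64 times, quantile normalization 1 at CD64 2 h, and the lower floor 1 between the receptors at 6 h. With 1 array left out, the number of members called ran from 2 to 4 at CD64 6 h, 0 to 2 at CD64 2 h, 1 to 2 at CD32 6 h, 2 to 2 at CD32 2 h, 0 to 1 between the receptors at 2 h and likewise at 6 h, 1 to 4 between the CD64 times, 0 to 0 between the CD32 times, 0 to 2 in the interaction and 2 to 3 in the F-test. Among all results against control, and every comparison of TLR4, CD14, MYD88 and IRAK1, direction changed only in results that were not called. TRAF6 at CD64 2 h was 0.31 under quantile normalization and 0.30 under cyclic loess, and ran from -0.75 to 0.70 with 1 array left out. With 1 array left out, TRAF6 at CD64 6 h ran from -0.20 to 1.25, TLR1 at CD32 2 h from -0.227 to 0.0198, and IRAK1 from -0.0605 to 0.326 at CD64 2 h and from -0.212 to 0.0615 at CD32 6 h. Between the CD32 times TLR4 ran from -0.0953 to 0.0956, MYD88 from -0.475 to 0.0240 and IRAK1 from -0.0115 to 0.262. The labels do not pair the arrays by number. With a replicate block every member count was as without it, and the call of UBE2N at CD64 6 h was lost (adjusted p = 0.0501 in limma); over all probe sets the block called 1635 at CD64 6 h. Over all probe sets, without the variance trend 725 were called at CD64 2 h (1224 with it), 830 between the receptors at 2 h (1256), 579 between the CD64 times (1065), 54 between the CD32 times (344) and 417 in the interaction (884, and 576 under quantile normalization), and with only the arrays compared 767 at CD64 2 h. With 1 array left out the lowest counts were 1003 of 1591 at CD64 6 h, 671 of 1224 at CD64 2 h, 986 of 1539 at CD32 6 h and 639 of 1192 at CD32 2 h. Among the other pathway genes, 5 were called higher at CD32 2 h with the variance trend and 1 without it. Over all probe sets 1192 were called at CD32 2 h with the trend and 810 without it, in either direction. The cause of these shifts was not tested. Members near the floor (TLR1, TLR8, CD14, and TRAF6 on some arrays) are limited by signal over background.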
